A study of Mus musculus with 2 samples.

Results

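A set of 9 genes that regulate the self-renewal of haematopoietic stem cells, the source of every blood lineage, was described in RNA-seq libraries from the mouse. The genes were chosen by symbol, 9 of the 23961 gene symbols kept from each file. The rule itself uses no measured value, but the list was drawn up with earlier results of these data known. Mecom, Prdm16, Mllt3, Msi2, Bcl11a and Sox4 form the adult-type group, and Hmga2, Lin28b and Igf2bp2 the fetal-type group. The study has 2 libraries of poly(A) RNA from bone marrow cells enriched by sorting and labelled as haematopoietic stem cells. One is labelled Per2def, from Per2-deficient mice, and 1 is labelled Per2wt, from wild-type mice, and Per2 is a gene whose protein restrains the circadian clock. Mice of both genotypes carry the strain label C57BL/6, were untreated, and had spent 2 weeks or more in cycles of 12 h of light and 12 h of dark. The sources used here do not give the Per2 allele, the age or number of the mice, the sort markers or the hour of collection. Values are FPKM, a count of sequenced fragments divided by gene length and by library size. A single library per genotype leaves no replicate, so no error or test can be given, and every difference is one between these libraries and not between genotypes.

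Self-renewal is the division of a stem cell that yields further stem cells, and it depends on transcription factors and RNA-binding proteins that hold back differentiation. MECOM (EVI1) and PRDM16 are zinc finger factors needed by long-lived stem cells. MLLT3 (AF9) reads acylated histones and recruits elongation factors, MSI2 binds mRNA in stem cells, BCL11A is a repressor that acts in lymphoid development and globin silencing, and SOX4 is an HMG box factor of progenitors and early lymphoid cells. Fetal stem cells divide more and use a further circuit. LIN28B blocks the maturation of the let-7 microRNAs, and let-7 in turn represses the mRNAs of HMGA2, a chromatin protein, of IGF2BP2, an mRNA-binding protein, and of LIN28B itself.

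The let-7 family is shown first because its seed is the sequence feature on which the fetal-type circuit rests. Of 11 mature mouse let-7 and miR-98 names matched in RefSeq (GRCm38.p6), 10 share the seed GAGGUAG at bases 2 to 8, and let-7j does not. The capitals mark bases 2 to 8, and the 4 sequences differ only outside them.
mmu-let-7a-5p: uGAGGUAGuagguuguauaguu
mmu-let-7e-5p: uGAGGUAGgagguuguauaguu
mmu-let-7g-5p: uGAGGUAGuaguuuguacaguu
mmu-miR-98-5p: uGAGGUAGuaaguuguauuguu

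All 3 fetal-type members held at least 1 complement of this seed (CTACCTC) in the longest 3′ UTR that GENCODE M21 (GRCm38) gives them, and none of the 6 adult-type members did. Hmga2 held 4 in 3014 bases, Lin28b 4 in 4445 bases and Igf2bp2 1 in 1784 bases. The adult-type 3′ UTRs ran from 1420 bases in Mecom to 5310 bases in Msi2. A shorter match, TACCTCA outside CTACCTCA, was counted apart. Hmga2 held 3 of these, Lin28b 1, Igf2bp2 1 and the adult-type Msi2 1. Of 21010 genes with an annotated 3′ UTR, 9.02% held at least 1 CTACCTC. Among them 12 genes, Hmga2 and Lin28b included, held at least as many as Hmga2. The median 3′ UTR of the 21010 genes was 960 bases, shorter than that of each member. Repression by let-7 is part of why these genes are known as fetal-type, so the split describes the sequences and is no result about the libraries. In each of the 3 genes 1 match is followed by A, which extends it to 8 bases. These sites are shown with the matching bases in capitals, on the minus strand of GRCm38.
Hmga2, chr10:120364216-120364245, base 58 of the 3′ UTR: ccgacattcaatttCTACCTCAgcatcagt
Lin28b, chr10:45381014-45381043, base 36 of the 3′ UTR: cccgggcgggaagtCTACCTCAtgcaagca
Igf2bp2, chr16:22059465-22059494, base 1313 of the 3′ UTR: cacacaaataaaagCTACCTCAggtgtttt

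**Figure D1:**
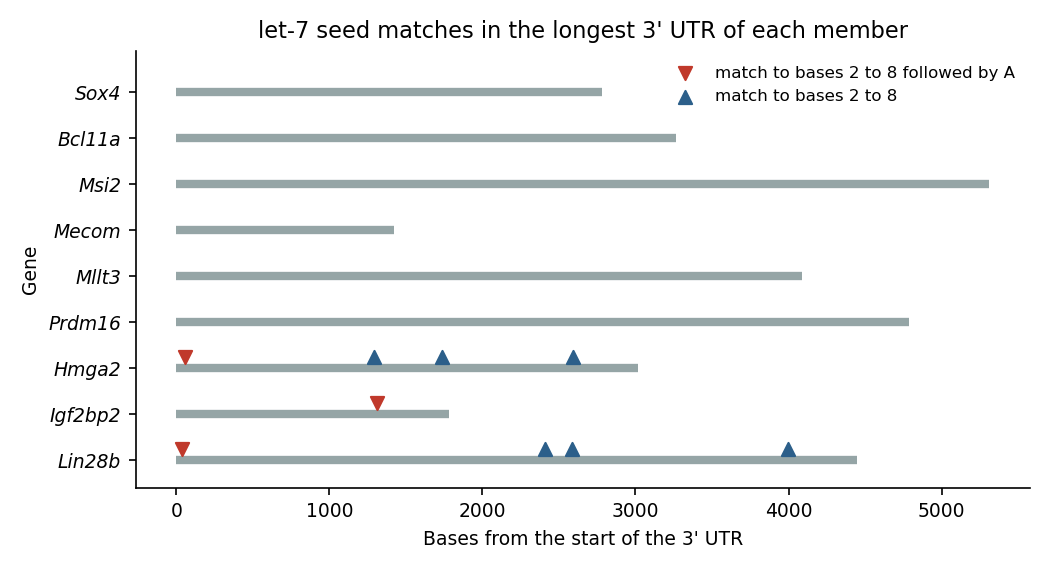
Positions of let-7 seed complements in the longest annotated 3′ UTR of each member, in bases from the start of the UTR. Grey bars are UTR lengths. The triangles mark 4 matches to CTACCTC in Hmga2, 1 in Igf2bp2 and 4 in Lin28b, with none in the 6 adult-type genes. The shorter match TACCTCA outside CTACCTCA, which Msi2 also holds, is not drawn.

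The check of the targeted gene went against what loss of its RNA would give. Per2 (ENSMUSG00000055866.9, chromosome 1, 91415982 to 91459324) stood at 6.16 FPKM in the library labelled Per2def and 1.96 FPKM in the library labelled Per2wt. The ratio was 3.13 and the allele is not named, so every direction is given between libraries as labelled. The 2 libraries listed 10908 genes at 1 FPKM or more for Per2def and 10673 for Per2wt, and absolute depth is unknown. Among 3232 genes under 0.5 FPKM the most common FPKM ratio of Per2def to Per2wt was 0.805, as if the Per2def library were 1.24 times the deeper. Differences are log2(FPKM + 1) of Per2def minus that of Per2wt, and the added 1 FPKM shrinks the differences of low genes. Over the 11121 genes that reached 1 FPKM in either library, the median difference was 0.05, and 62.0% of them were higher in Per2def.

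Of the 9 regulators, 7 passed the floor of 1 FPKM, and they did so in both libraries. None of these 7 differed between the libraries by 2-fold on this scale. Igf2bp2 and Lin28b, under 1 FPKM in both, cannot reach 2-fold once 1 FPKM is added, so this threshold says nothing of them. Among these 7, 5 were higher in Per2def and 2 lower, with a median difference of 0.02 and a range of −0.15 to 0.21. None passed 1.5-fold. Among the 11121 genes 1.25% were past 2-fold in the higher direction and 0.998% in the lower, and 2.61% and 1.7% were past 1.5-fold, so a list of 7 with none is near what the whole table shows. Without the rows named as small or predicted RNAs these shares were 0.266% higher and 0.168% lower at 2-fold, and 1.32% higher and 0.749% lower at 1.5-fold. The split by direction depends on the scaling, since after scaling by the median of ratios, which shifts Per2def by −0.05 on the log2 scale, 2 of the 7 were higher and 5 lower. In summed FPKM the adult-type group stood at 117 in Per2def and 111 in Per2wt, and the fetal-type group at 3.02 in Per2def and 2.78 in Per2wt. Fetal-type genes held 2.51% of the members' summed FPKM in Per2def and 2.44% in Per2wt. In bulk RNA fewer cells of a type and less RNA per cell cannot be told apart. GENCODE places antisense exons over Mecom, Prdm16, Bcl11a, Sox4 and Hmga2, and the strand setting of the counting is unknown, so reads of these genes and of their antisense partners cannot be told apart.

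**Figure D2:**
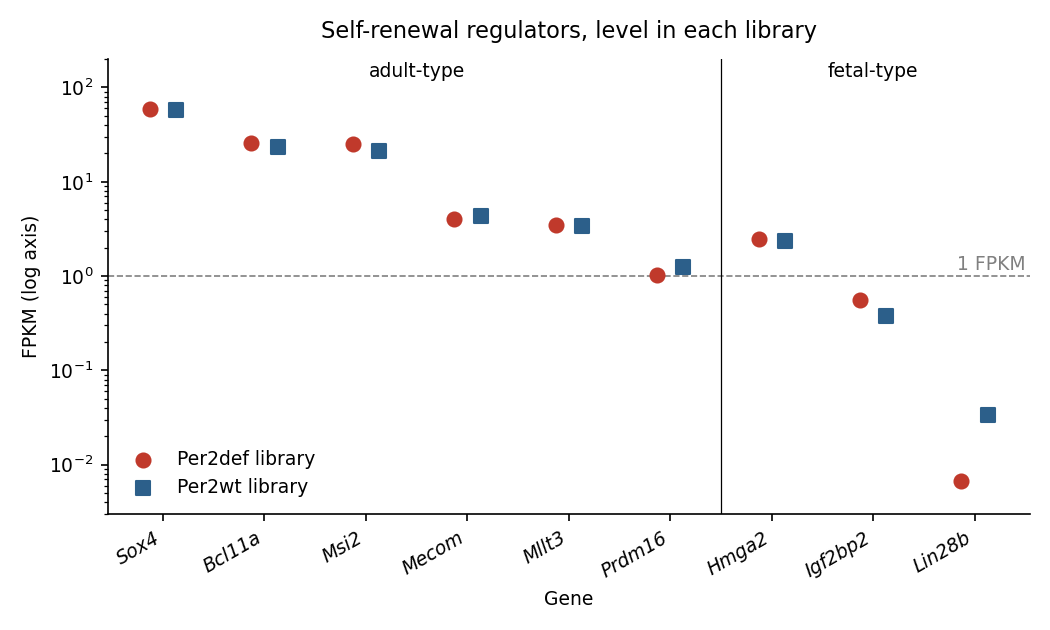
FPKM of each regulator on a log axis, 1 point per library, Per2def (circles) beside Per2wt (squares), with the 1 FPKM floor dashed. Points of a gene lie close together from Sox4 near 58 FPKM to Prdm16 near 1 FPKM, and part visibly in Igf2bp2 and Lin28b, both under 1 FPKM.

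The order of levels was the same in both libraries. FPKM are per length, so genes can be set side by side within a library. Sox4 came first, followed by Bcl11a, Msi2, Mecom, Mllt3, Hmga2, Prdm16, Igf2bp2 and Lin28b. Neighbours lay close in places. Bcl11a was 1.03 times Msi2 in Per2def and 1.09 times in Per2wt, and Mecom was 1.17 times Mllt3 in Per2def and 1.26 times in Per2wt. With no spread to set them against, the order of these neighbours is not established. The place of Mecom also rests on summing its 2 rows. Its higher row alone, at 2.70 FPKM in Per2def and 2.90 FPKM in Per2wt, lay below Mllt3 in both libraries. The fetal-type Hmga2 ranked above the adult-type Prdm16 in both libraries, 2.39-fold in Per2def and 1.91-fold in Per2wt.

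Sox4 (ENSMUSG00000076431.4, chromosome 13, 28948919 to 28953713, minus strand) was the most abundant regulator. It stood at 58.4 FPKM in Per2def and 57.8 FPKM in Per2wt, a ratio of 1.01. This placed it 573rd of all symbols in Per2def and 557th in Per2wt. Its difference of 0.02 turned to −0.04 when the libraries were scaled by the median of ratios, so no direction is given.

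Bcl11a (ENSMUSG00000000861.15, chromosome 11, 24078056 to 24174123, plus strand) stood at 25.6 FPKM in Per2def and 23.2 FPKM in Per2wt, 1.10-fold higher in Per2def (difference 0.14). Msi2 (ENSMUSG00000069769.13, chromosome 11, 88339382 to 88718513, minus strand) stood at 24.9 FPKM in Per2def and 21.4 FPKM in Per2wt, 1.16-fold higher (0.21). Msi2 had the widest difference of the 9 on the log2(FPKM + 1) scale, and both genes stayed higher in Per2def under each scaling and pseudocount tried. For the 1286 genes at a mean of 20 to 100 FPKM, these 3 among them and small or predicted RNAs left out, the middle 95% of differences ran from −0.34 to 0.31, and Sox4, Bcl11a and Msi2 all lay inside it.

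Mecom (ENSMUSG00000027684.16, chromosome 3, 29951296 to 30548008, minus strand) is listed in 2 rows per file, which were summed. The sums were 4.03 FPKM in Per2def and 4.30 FPKM in Per2wt, a ratio of 0.939 (−0.07). One row stood at 2.70 FPKM in Per2def and 2.90 FPKM in Per2wt, and the other at 1.33 FPKM in Per2def and 1.40 FPKM in Per2wt. The ratios of the rows, 0.934 and 0.949, lay close, and both rows were lower in Per2def. Which transcripts each row holds is not given in the files. Prdm16 (ENSMUSG00000039410.16, chromosome 4, 154316125 to 154636873, minus strand), the relative of Mecom, stood at 1.02 FPKM in Per2def and 1.24 FPKM in Per2wt, a ratio of 0.825 (−0.15). Both were lower in Per2def under every scaling and pseudocount tried, and Prdm16 moved to −0.26 with a pseudocount of 0.1 FPKM. The middle 95% of differences of genes at 1 to 2 FPKM ran from −0.42 to 0.59, and Prdm16 lay inside it.

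Mllt3 (ENSMUSG00000028496.17, chromosome 4, 87769925 to 88033364, minus strand) stood at 3.45 FPKM in Per2def and 3.41 FPKM in Per2wt, a ratio of 1.01. Its difference of 0.01 turned to −0.03 with the median of ratios. Mllt3 and Sox4 were the closest to equal of the 9 as plain ratios.

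Hmga2 (ENSMUSG00000056758.14, chromosome 10, 120361275 to 120476469, minus strand) was the fetal-type gene with the highest level. It stood at 2.45 FPKM in Per2def and 2.37 FPKM in Per2wt, a ratio of 1.04. The difference of 0.04 was −0.0025 with the median of ratios, so no direction is given. The middle 95% of differences of the 2798 genes at 2 to 5 FPKM ran from −0.38 to 0.46, and Hmga2, Mllt3 and Mecom lay well inside.

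Igf2bp2 (ENSMUSG00000033581.17, chromosome 16, 22059009 to 22163299, minus strand) stood at 0.560 FPKM in Per2def and 0.377 FPKM in Per2wt, 1.48-fold higher as a plain ratio and 0.18 on the log2(FPKM + 1) scale. With a pseudocount of 0.1 FPKM the difference was 0.47. Genes at 0.2 to 1 FPKM spread from −0.38 to 0.50 in their middle 95% on the main scale, and Igf2bp2 lay inside.

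Lin28b (ENSMUSG00000063804.8, chromosome 10, 45376620 to 45486395, minus strand) was near 0, at 0.00674 FPKM in Per2def and 0.0335 FPKM in Per2wt. The FPKM ratio was 0.201, which is 0.250 times the most common ratio of low genes. That is what 1 fragment in Per2def against 4 in Per2wt would give, or a multiple of these. A difference between the libraries was not detectable at this level, although the plain ratio lies beyond 2-fold.

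**Figure D3:**
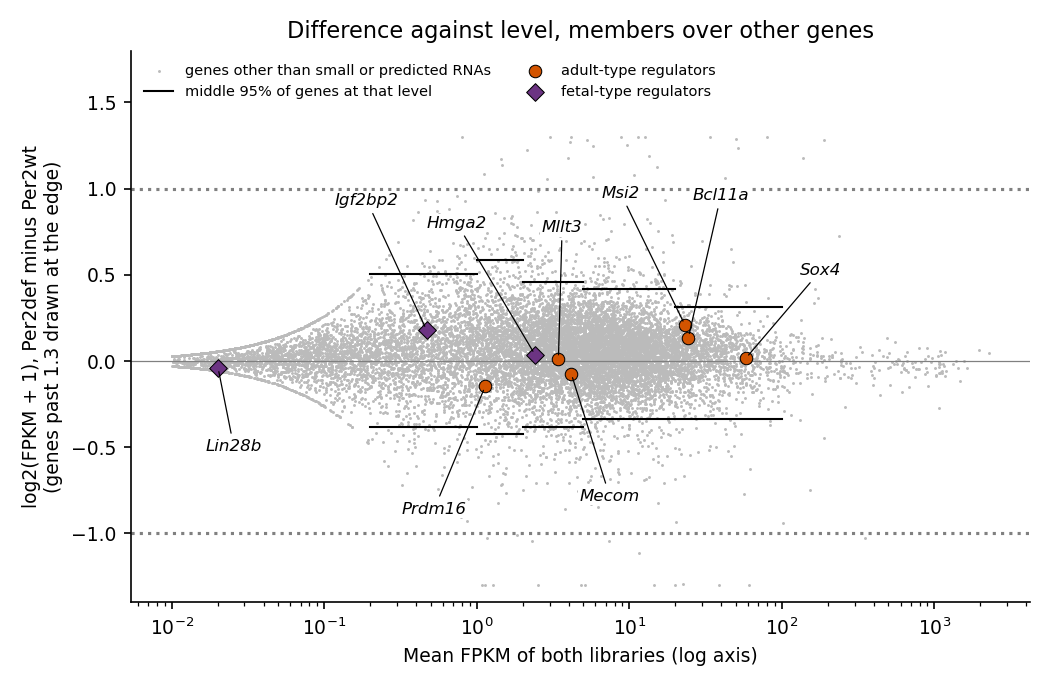
Difference of log2(FPKM + 1), Per2def minus Per2wt, against mean FPKM (log axis) for genes other than small or predicted RNAs (grey) and the regulators (coloured). Horizontal black lines bound the middle 95% of genes in each range of level from 0.2 to 100 FPKM, and 8 regulators lie between them, while Lin28b lies below that range of level. Dotted lines mark 2-fold, and genes past 1.3 are drawn at the edge.

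The closest relatives of the regulators were read beside them, family by family. Msi2 stood at 24.9 FPKM in Per2def and 21.4 FPKM in Per2wt, while Msi1, the neural Musashi gene, was listed at 0 in both libraries. Bcl11a was at 25.6 FPKM in Per2def and 23.2 FPKM in Per2wt, whereas Bcl11b, its relative of T cells, was at 0.255 FPKM in Per2def and 0.0870 FPKM in Per2wt. Sox4 was 9.40 times its SoxC relative Sox12 in Per2def and 10.6 times in Per2wt, with Sox12 at 6.21 FPKM in Per2def and 5.45 FPKM in Per2wt (0.16), and the other SoxC gene, Sox11, was listed at 0 in both. Mllt3 and Hmga2 were the lower of their pairs. Mllt1 (ENL), the relative of Mllt3, was at 9.49 FPKM in Per2def and 10.4 FPKM in Per2wt, 2.75 times Mllt3 in Per2def and 3.06 times in Per2wt. Hmga1, which unlike Hmga2 is used widely by adult dividing cells, stood at 26.3 FPKM in Per2def and 23.9 FPKM in Per2wt. That was 10.7 times Hmga2 in Per2def and 10.1 times in Per2wt. The level of Hmga1 is uncertain, since reads of similar sequence can be shared out among genes. Lin28a was at 0.0749 FPKM in Per2def and 0.0797 FPKM in Per2wt. Igf2bp3 was at 0.313 FPKM in Per2def and 0.273 FPKM in Per2wt, and Igf2bp1 at 0.00429 FPKM in Per2def and listed at 0 in Per2wt. Of the 9 relatives, 3 passed 1 FPKM, and none of those differed by 2-fold.

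**Figure D4:**
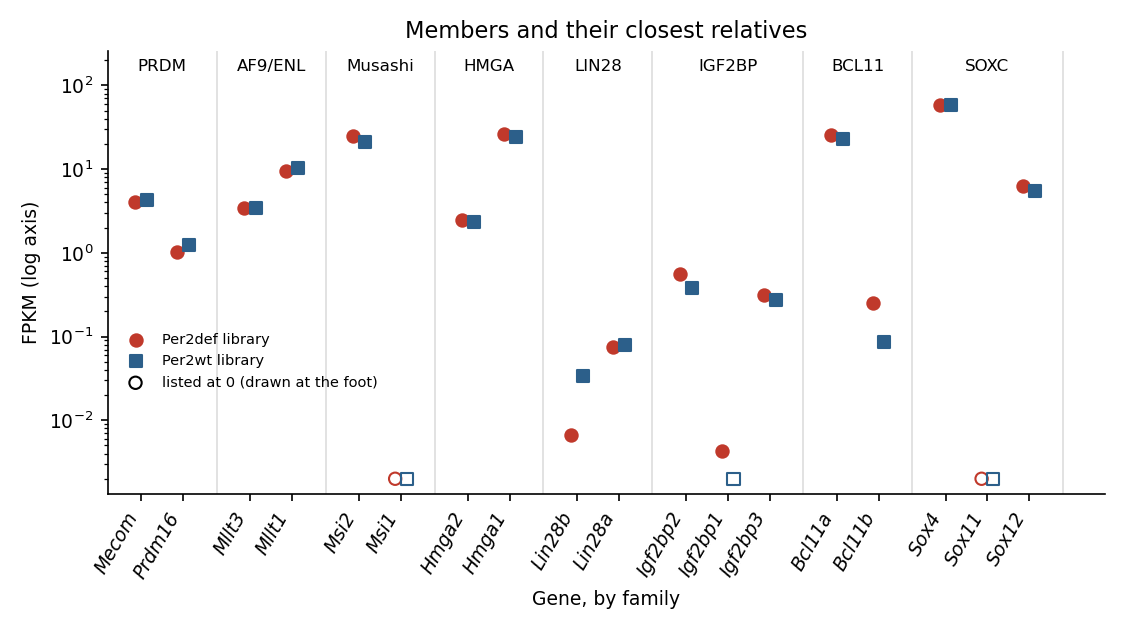
FPKM (log axis) of the regulators and their closest relatives, grouped by family, Per2def (circles) beside Per2wt (squares), with open symbols at the foot for genes listed at 0. Msi2, Bcl11a and Sox4 stand above their relatives, while Mllt3 and Hmga2 stand below Mllt1 and Hmga1.

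Most other genes of the fetal-type circuit were under 1 FPKM in both libraries. Of 12 further genes listed as fetal-type, only Hmga1 and Arid3a, a DNA-binding factor of fetal progenitors, reached 1 FPKM. Hmga1 is used widely by adult dividing cells, so its level does not mark a fetal state. Arid3a stood at 2.76 FPKM in Per2def and 2.22 FPKM in Per2wt (0.22). Sox17, a factor fetal stem cells depend on in the mouse, and Trim71, a let-7 target, were listed at 0 in both.

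The genes that process or tail let-7 were well expressed. Of 15, all but Ago3 passed the floor, with 9 higher in Per2def, 5 lower and a median of 0.03 that turned to −0.02 with the median of ratios. Ago4, among the 5 lower, passed through the Per2wt library alone, so its direction follows from the floor. Widest were Zcchc6, a terminal uridylyl transferase that acts on let-7 precursors, at 13.5 FPKM in Per2def and 10.9 FPKM in Per2wt (0.29), and Drosha, the nuclear microRNA processor, at 10.6 FPKM in Per2def and 9.09 FPKM in Per2wt (0.20). Dgcr8, the partner of Drosha, was at 9.18 FPKM in Per2def and 8.39 FPKM in Per2wt (0.12), and Xpo5, which exports precursors from the nucleus, at 11.3 FPKM in Per2def and 10.3 FPKM in Per2wt (0.11). The helicase gene Ddx5, the most abundant, was at 126 FPKM in Per2def and 124 FPKM in Per2wt (0.02). Of 20 textbook let-7 targets other than the members, 15 passed the floor, 12 higher and 3 lower, where 62.0% of all genes were higher. Their median was 0.11 against 0.05 for all genes. E2f2, an S phase activator, was at 2.67 FPKM in Per2def and 1.76 FPKM in Per2wt (0.41). The cyclin gene Ccnd1 was at 5.24 FPKM in Per2def and 4.18 FPKM in Per2wt (0.27), and the phosphatase gene Cdc25a, which opens cell cycle kinases, at 11.1 FPKM in Per2def and 9.26 FPKM in Per2wt (0.23). The cell cycle kinase gene Cdk6 was at 44.0 FPKM in Per2def and 36.5 FPKM in Per2wt (0.26), and Myc, the most abundant target, at 60.3 FPKM in Per2def and 67.2 FPKM in Per2wt (−0.15). None of the 15 differed by 2-fold.

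Genes with and without the let-7 seed complement were set side by side as classes. Among 9867 genes at 1 FPKM or more with an annotated 3′ UTR, 1029 held at least 1 match, with a median difference of 0.07 and 66.2% higher in Per2def. The 8838 with none had a median of 0.05 and 61.8% higher. The values did not rise steadily with the number of matches. The 125 genes with 2 or more matches had a median of 0.04 and 61.6% higher. The 17 of them with 3 or more had a median of 0.14 and 76.5% higher. Genes with a match have longer 3′ UTRs, at a median of 2324 bases against 1028 bases for genes with none, and the part of length in these values was not tested. The let-7 RNAs themselves are too short to be read from libraries of poly(A) RNA. Of 14 let-7 and miR-98 precursor rows, 12 were listed at 0 in both libraries. Mirlet7i was at 41.7 FPKM in Per2def and listed at 0 in Per2wt, and Mir98 was listed at 0 in Per2def and at 34.0 FPKM in Per2wt, values that a very short row can reach from few fragments.

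Partners of MECOM and PRDM16 went both ways. All 18 passed the floor, 8 were higher in Per2def and 10 lower, and the median was −0.05 against 0.05 for all genes. The myeloid factor genes Cebpa, at 10.02 FPKM in Per2def and 12.998 FPKM in Per2wt (−0.35), and Spi1, at 21.8 FPKM in Per2def and 25.9 FPKM in Per2wt (−0.24), were lower. So was Gata2, a stem cell factor gene, at 18.6 FPKM in Per2def and 22.5 FPKM in Per2wt (−0.27). The erythroid factor gene Gata1 stood higher, at 12.8 FPKM in Per2def and 10.7 FPKM in Per2wt (0.24), as did the mitochondrial fusion gene Mfn1, at 5.35 FPKM in Per2def and 4.36 FPKM in Per2wt (0.25). The corepressor gene Ctbp1, the most abundant partner, was at 53.4 FPKM in Per2def and 50.6 FPKM in Per2wt (0.08). Of 13 other PRDM genes, 7 passed the floor with a median of 0.05, led by Prdm10 at 2.36 FPKM in Per2def and 1.82 FPKM in Per2wt (0.25). Prdm2, the most abundant, was at 5.18 FPKM in Per2def and 4.85 FPKM in Per2wt (0.08), while Prdm6, Prdm12, Prdm13 and Prdm14 were listed at 0 in both.

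MLLT3 joins the DOT1L histone methyltransferase complex, the super elongation complex and, through it, the PAF complex. Of 24 genes 23 passed the floor, 16 higher and 7 lower, with a median of 0.07. Dot1l itself was at 8.93 FPKM in Per2def and 8.83 FPKM in Per2wt (0.02). The widest differences were in Eaf2, an ELL partner, at 2.13 FPKM in Per2def and 0.875 FPKM in Per2wt (0.74), and in the Polycomb gene Cbx8, at 2.45 FPKM in Per2def and 3.48 FPKM in Per2wt (−0.38). Eaf2 passed the floor through the Per2def library alone. The PAF-associated gene Rtf1 was at 12.3 FPKM in Per2def and 11.0 FPKM in Per2wt (0.15). Mllt10 (AF10), a partner of DOT1L, was at 9.23 FPKM in Per2def and 8.29 FPKM in Per2wt (0.14), and the chromatin reader gene Psip1, the most abundant, at 33.9 FPKM in Per2def and 31.7 FPKM in Per2wt (0.09).

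For MSI2, 12 of 16 partners and reported targets passed the floor, 6 higher and 6 lower, with a median of 0.0037. Hoxa9, a stem cell homeobox gene, stood at 10.4 FPKM in Per2def and 13.3 FPKM in Per2wt (−0.32). Arnt, the partner of the aryl hydrocarbon receptor, was at 6.04 FPKM in Per2def and 5.30 FPKM in Per2wt (0.16). The chaperone gene Hsp90aa1, the most abundant, was at 188 FPKM in Per2def and 184 FPKM in Per2wt (0.03). Several of these targets are known from human cells or leukaemia.

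Partners of BCL11A, mostly subunits of the NuRD remodelling complex, were higher in Per2def in 15 of 19 measured cases and lower in 4, where 62.0% of all genes were higher. Their median was 0.07, against 0.05 for all genes, and 0.013 with the median of ratios. Gatad2b was at 12.9 FPKM in Per2def and 9.64 FPKM in Per2wt (0.38) and Mbd2 at 27.0 FPKM in Per2def and 22.96 FPKM in Per2wt (0.23). The repressor gene Zbtb7a, known for globin silencing beside BCL11A, was at 13.2 FPKM in Per2def and 11.1 FPKM in Per2wt (0.23), and Mta3 was lower, at 14.6 FPKM in Per2def and 17.7 FPKM in Per2wt (−0.26). Chd4, the remodelling ATPase of NuRD and the most abundant partner, was at 59.5 FPKM in Per2def and 57.5 FPKM in Per2wt (0.05). Klf1, the erythroid factor that activates Bcl11a, stood at 21.8 FPKM in Per2def and 16.2 FPKM in Per2wt (0.41), and Myb, a progenitor factor gene, at 69.6 FPKM in Per2def and 73.4 FPKM in Per2wt (−0.07). BCL11A silences the embryonic globin genes. Hbb-y and Hbb-bh1 were listed at 0 in both libraries, and Hba-x, an embryonic alpha globin gene, was listed at 0 in Per2def and at 0.220 FPKM in Per2wt.

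Among early lymphoid genes with which BCL11A and SOX4 act, 10 of 18 passed the floor, 7 higher and 3 lower, with a median of 0.05. Dntt, the terminal transferase gene, was at 60.6 FPKM in Per2def and 68.7 FPKM in Per2wt (−0.18), and Tcf7, a T lineage factor gene, at 2.40 FPKM in Per2def and 1.22 FPKM in Per2wt (0.61). Il7r, the interleukin 7 receptor gene, stood at 2.11 FPKM in Per2def and 1.78 FPKM in Per2wt (0.16). The B lineage factors Ebf1 and Pax5 were under 1 FPKM in both. Of 18 other SOX genes only Sox12, Sox13 and Sox6 passed, all higher in Per2def. Sox13 stood at 2.25 FPKM in Per2def and 1.40 FPKM in Per2wt (0.44), and Sox6, an erythroid and fetal globin regulator, at 1.20 FPKM in Per2def and 0.679 FPKM in Per2wt (0.39). Sox6 passed the floor through the Per2def library alone.

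**Figure D5:**
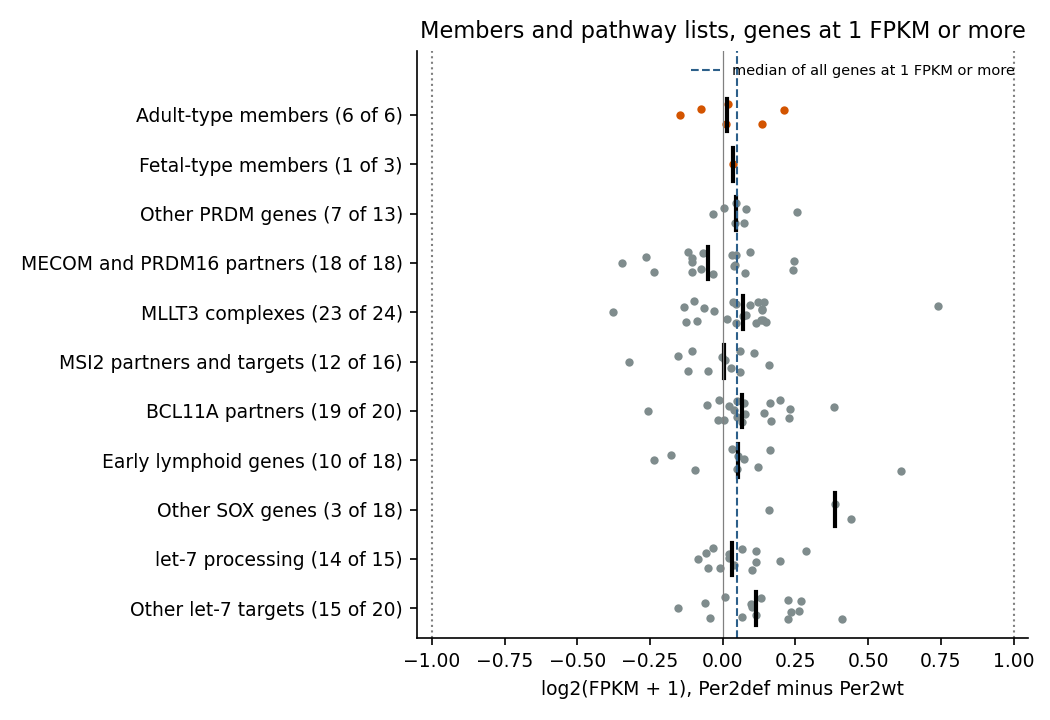
Difference of log2(FPKM + 1), Per2def minus Per2wt, for each measured gene (points) of the members and of lists around them, with the list median as a black bar and the number measured in brackets. Every point lies inside the dotted 2-fold lines, and the median of all genes, 0.05, is dashed.

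Promoters were searched for the letters bound by clock factors because the contrast concerns a clock repressor. RefSeq windows of 250 bases before to 50 bases after a start site were found for all 9 members, 13 windows in all. The E-box CACGTG, read on both strands, lay in 4 of the 13, and in 7.15% of 32851 windows of the same length. These 4 belonged to 2 genes, Lin28b with 1 E-box and Msi2, whose 3 overlapping windows hold the same 2. The D-box TTATGTAA was in none, against 0.938% of all windows. The letters AGGTCA, the core that ROR and REV-ERB factors bind, were in 1 Mecom window and in the Sox4 window, against 16.3% of all. One window of Msi2, the member with the widest difference on the log2(FPKM + 1) scale, is printed with E-boxes in capitals (GRCm38.p6, minus strand).
Msi2, chr11:88718218-88718517: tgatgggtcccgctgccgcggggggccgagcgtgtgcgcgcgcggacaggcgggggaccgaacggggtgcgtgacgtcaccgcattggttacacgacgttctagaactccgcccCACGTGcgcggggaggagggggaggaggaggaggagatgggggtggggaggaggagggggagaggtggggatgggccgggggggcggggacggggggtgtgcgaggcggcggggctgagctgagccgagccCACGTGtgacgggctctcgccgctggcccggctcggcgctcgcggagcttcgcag

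A match is a description of letters, not a binding site, and a window without one says nothing of the factor. Genes with an E-box in a window, 1005 at 1 FPKM or more, had a median difference of 0.06, against 0.05 for the 7203 without. The windows of Mecom are shown because the RefSeq table holds 2 for this gene, which makes a longer form with the PR domain and a shorter EVI1 form. The GENCODE gene starts further upstream than both windows, and the files do not pair their Mecom rows with starts. The upstream window comes first and holds none of the letters searched, the capitals in the other mark AGGTCA read on the opposite strand, and both are given on the minus strand of GRCm38.p6.
Mecom, chr3:30509710-30510009: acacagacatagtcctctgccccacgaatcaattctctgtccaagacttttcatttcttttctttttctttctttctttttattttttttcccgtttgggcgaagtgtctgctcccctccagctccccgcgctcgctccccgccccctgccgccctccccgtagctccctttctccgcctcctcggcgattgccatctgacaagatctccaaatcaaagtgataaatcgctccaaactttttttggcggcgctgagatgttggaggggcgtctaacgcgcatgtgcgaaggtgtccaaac
Mecom, chr3:30013155-30013454: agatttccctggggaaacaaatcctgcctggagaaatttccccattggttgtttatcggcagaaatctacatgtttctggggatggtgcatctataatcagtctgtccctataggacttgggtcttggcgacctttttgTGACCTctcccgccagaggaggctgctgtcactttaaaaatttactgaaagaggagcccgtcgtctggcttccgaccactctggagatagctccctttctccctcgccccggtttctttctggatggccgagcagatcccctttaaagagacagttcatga

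Markers of the cells a marrow sort could hold were read beside the regulators, and their part in the regulators' differences was not tested. Of 30 stem cell markers, 3 of them also members here, 25 passed the floor, with a median of −0.02. Of these, 10 were higher in Per2def and 15 lower, where 62.0% of all genes were higher. Past 2-fold was 1 gene, Fgf3, at 0.0354 FPKM in Per2def and 2.51 FPKM in Per2wt (−1.76). Among all genes 0.998% were at least 2-fold lower. Fgf3, Tek and Ndn passed the floor through the Per2wt library alone and Cdkn1c through the Per2def library alone, so the floor set their direction. Over all 30 markers 13 were higher and 17 lower, with a median of −0.02. Their summed FPKM was 283 in Per2def and 369 in Per2wt, a gap that lies mostly in Gpr56, at 69.3 FPKM in Per2def and 134 FPKM in Per2wt. Kit, the stem cell factor receptor gene, was at 43.6 FPKM in Per2def and 42.7 FPKM in Per2wt. Of 13 progenitor markers, all measured, 9 were higher and 4 lower (median 0.13), with a sum of 423 FPKM in Per2def and 387 FPKM in Per2wt. Fcgr3 passed the floor through the Per2def library alone, so its direction follows from the floor. The 4 lower were Cd34, Cd27, Fcgr2b and Cebpa, with Cd34 at 83.9 FPKM in Per2def and 90.5 FPKM in Per2wt (−0.11). Mpo, the most abundant, stood at 181 FPKM in Per2def and 143 FPKM in Per2wt (0.34). Flt3 was at 51.4 FPKM in Per2def and 48.8 FPKM in Per2wt (0.07). Both libraries thus hold RNA of progenitor markers beside those of stem cells.

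Neutrophil markers differed most of these lists by median. Of 12, 10 passed the floor, 9 higher and 1 lower (median 1.12). At least 2-fold higher were 6 of them, against 1.25% of all genes, and at least 2-fold lower was 1, against 0.998% of all genes. That 1 was Retnlg, listed at 0 in Per2def and at 2.16 FPKM in Per2wt (−1.66). Retnlg passed the floor through the Per2wt library alone, so its direction follows from the floor. The sum was 814 FPKM in Per2def and 380 FPKM in Per2wt. S100a8, an alarmin subunit gene, was at 266 FPKM in Per2def and 109 FPKM in Per2wt. Of 12 erythroid markers 11 passed, 8 higher and 3 lower (median 0.37), with a sum of 736 FPKM in Per2def and 660 FPKM in Per2wt. Alas2, among the 3 lower, passed through the Per2wt library alone, so its direction follows from the floor. Car1 was at 294 FPKM in Per2def and 177 FPKM in Per2wt, while the globin gene Hba-a1 was at 115 FPKM in Per2def and 193 FPKM in Per2wt. Of 10 megakaryocyte markers 8 passed, 3 higher and 5 lower (median −0.15), with a sum of 38.4 FPKM in Per2def and 48.4 FPKM in Per2wt. Most of that gap lies in Thbs1, the thrombospondin gene, at 0.996 FPKM in Per2def and 8.70 FPKM in Per2wt (−2.28). Thbs1 passed the floor through the Per2wt library alone. It was the 1 gene of the list past 2-fold, where 0.998% of all genes were at least 2-fold lower. Monocyte and dendritic markers passed in 5 of 8 cases, all 5 higher (median 0.47), where 62.0% of all genes were higher. Of them 1, Ly6c2, was past 2-fold, against 1.25% of all genes. The monocyte and dendritic markers had a sum of 43.6 FPKM in Per2def and 24.5 FPKM in Per2wt. T lineage markers passed in 5 of 8 cases, all 5 higher (median 0.61). Cd3g, at 1.41 FPKM in Per2def and 0.266 FPKM in Per2wt, and Cd4, at 1.07 FPKM in Per2def and 0.542 FPKM in Per2wt, passed through the Per2def library alone, so their direction follows from the floor, and the median over all 8 was 0.39. The T lineage markers had a sum of 18.7 FPKM in Per2def and 13.2 FPKM in Per2wt. Only 1 of 8 B lineage markers passed, Cd79b, and the sum was 6.55 FPKM in Per2def and 6.94 FPKM in Per2wt, with Igll1 listed at 0 in both. Endothelial markers summed to 22.4 FPKM in Per2def and 17.6 FPKM in Per2wt, with 4 of 5 measured genes higher. Stromal markers summed to 6.71 FPKM in Per2def and 5.33 FPKM in Per2wt, with both measured genes higher and Pdgfra and Acan listed at 0 in both.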

How the data were processed

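A pair of poly(A) RNA-seq libraries were described, Per2def and Per2wt, grouped by the genotype label. The authors deposited FPKM per gene, per the file headers. Per the submitters' processing notes they used CASAVA 1.8, TopHat, Bowtie2 and Cufflinks with the builds GRCm38 and mm10. The kit marks strand, per the labels' protocols, while the other tool versions, the annotation and the strand setting were not found in these sources. FPKM depend on the library total, so abundant rows shift all others. Depth is unknown, so no interval or detection floor is given.

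Each file held 24487 rows. Rows with the Cufflinks flag for too much data (9) and rows whose symbols had become dates (27) were left out, and rows sharing a symbol were summed, leaving 23961 symbols. Differences are log2(FPKM + 1) over genes that reach 1 FPKM in either library, with a threshold of 2-fold. No test was run with 1 library per group. Small or predicted RNAs were set apart by symbol. Relative depth came from genes under 0.5 FPKM, in bins of 0.005 on the log2 scale. Coordinates and 3′ UTRs came from GENCODE M21, and microRNAs and promoters from RefSeq. Alternatives were other pseudocounts, floors, scalings, fold thresholds and the highest row per symbol. The members and lists were chosen with earlier results of these data known. Named genes were Per2, all members, their relatives, and up to 4 genes of the widest difference per pathway list with its most abundant gene. For some cell types, some of the most abundant markers were named too. Other markers of like or higher level were left out, so the named ones do not stand for their lists. Other genes, such as Dot1l, Mirlet7i, Mir98, Hba-x, Ebf1, Pax5, Fgf3, Retnlg, Thbs1, Ly6c2, Cd3g and Cd4, were added after their values were seen. So were Ago4, Tek, Ndn, Cdkn1c, Fcgr3, Fcgr2b, Cd27 and Alas2. A gene named by the rule is not reported here. Steps were checked on simulated data. Python 3.11.15, pandas 2.3.3, NumPy 2.4.6 and Matplotlib 3.10.9 were used.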

Additional observations from a re-analysis of the deposited data

How the results depend on the processing

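A single library per genotype gives no spread to judge a difference by, depth is unknown, and the low members Lin28b and Igf2bp2 carry the most counting error. No paired analysis was possible because each genotype has 1 library, and no replicate could be left out. A median was taken as moved when it shifted by 0.1 or more on the log2 scale and a count when it changed by more than 1.5 times. The count of members past the fold was 0 under each setting run, among them a 1.5-fold threshold. The setting with no floor also counts Lin28b and Igf2bp2, which cannot reach 2-fold with 1 FPKM added, so their outcome was fixed in advance. Of the alternative values of lists and counts 156 stayed within those limits and 17 did not, and the cause was not tested beyond what each setting leaves out. Mllt3, Sox4 and Hmga2 turned below 0 with the median of ratios, at −0.03, −0.04 and −0.0025, while the other 6 members kept their direction. With the median of ratios 2 members were higher and 5 lower. With a floor of 5 FPKM, which leaves Sox4, Bcl11a and Msi2 and no fetal-type member, 3 were higher and 0 lower, the member and adult-type medians were both 0.14, and the medians of other SOX genes and of MSI2 partners were 0.16 and −0.11. With no floor the medians of other SOX genes, of further fetal-type genes and of BCL11A regulators with embryonic globins were 0.063, 0.025 and −0.075. The SOX median was 0.65 with a pseudocount of 0.1 FPKM and 0.52 with 0.5 FPKM. Genes past the fold, higher, were 217 with a pseudocount of 0.1 FPKM, against 139 at the main settings. The 1.5-fold threshold gave 290 higher and 189 lower, and the 4-fold threshold 87 higher.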
